A study of Mus musculus with 15 samples.

Results

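Transcription factors that maintain the identity of haematopoietic stem cells (HSC) were followed across HSC of 3 groups of mice, namely young animals, untreated aged animals, and aged animals that drank nicotinamide riboside (NR). NR is a vitamin B3 compound from which cells make nicotinamide adenine dinucleotide (NAD). The members were 10 named genes, *Hlf*, *Mecom*, *Gata2*, *Tal1*, *Lmo2*, *Runx1*, *Fli1*, *Erg*, *Lyl1* and *Gfi1b*. All 10 were among the 16154 genes of the count table. They were listed by name, by a rule that used no value of these libraries, though with earlier results of these data known.

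RNA was sequenced from 15 C57BL/6 mice, 5 in each group, with 1 library per mouse from 20000 to 25000 sorted HSC. The Young mice were 6 to 12 weeks old and received water without NR. The Aged mice were 20 to 24 months old and received water without NR. The Aged+NR mice were of the same age and drank water with 3 mg/ml NR for 2 months. All mice were labelled female, and HSC were sorted in the study as Lin- Sca-1+ cKit+ CD150+ CD48- cells, a gate that enriches for stem cells and can still admit other cells.

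Stem cell identity rests on a small set of transcription factors that bind together at the same regulatory regions and also regulate one another's genes. TAL1 and its close relative LYL1 are basic helix-loop-helix proteins that pair with E proteins and bind E-box sequences. LMO2 does not bind DNA itself and bridges this pair to the zinc finger protein GATA2 and to the adaptor LDB1. FLI1 and ERG are ETS proteins, RUNX1 binds DNA with its partner CBFB, and these proteins share many bound sites with the GATA2, TAL1, LYL1 and LMO2 complex. HLF is a basic leucine zipper protein of the PAR family, MECOM is a zinc finger protein that maintains long-term stem cells, and GFI1B is a zinc finger repressor that recruits the demethylase encoded by *Kdm1a* and acts in erythroid and megakaryocytic development.

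RefSeq promoter windows, the 250 bases before an annotated start on the GRCm38.p6 build, were matched for 8 of the 10 members, with 14 windows in all. *Lmo2* and *Fli1* were not matched. The windows below, 1 for each gene, belong to the 3 members that changed between groups and to *Gata2*, whose group means were ordered opposite to those of *Tal1*. Capitals mark matches on either strand to motifs that members of the set are known to bind, namely a GATA motif (searched as AGATAA, as TGATAA, as AGATAG and as TGATAG), an E-box (CANNTG) and an ETS motif (searched as AGGAAG and as CGGAAG). Each sequence reads 5′ to 3′ on the strand of its gene.
*Tal1*, chr4:115056176-115056425, plus strand: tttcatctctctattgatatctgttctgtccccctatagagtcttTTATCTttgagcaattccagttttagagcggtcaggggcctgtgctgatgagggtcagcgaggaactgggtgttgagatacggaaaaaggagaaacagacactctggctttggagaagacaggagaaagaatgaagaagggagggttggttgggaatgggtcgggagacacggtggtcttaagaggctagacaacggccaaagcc
*Gfi1b*, chr2:28621983-28622232, minus strand: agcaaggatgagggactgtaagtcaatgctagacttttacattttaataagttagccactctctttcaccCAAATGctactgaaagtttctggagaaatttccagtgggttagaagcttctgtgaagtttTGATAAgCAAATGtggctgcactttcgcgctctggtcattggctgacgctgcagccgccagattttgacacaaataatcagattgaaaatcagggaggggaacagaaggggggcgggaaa
*Erg*, chr16:95459349-95459598, minus strand, an internal start of the gene: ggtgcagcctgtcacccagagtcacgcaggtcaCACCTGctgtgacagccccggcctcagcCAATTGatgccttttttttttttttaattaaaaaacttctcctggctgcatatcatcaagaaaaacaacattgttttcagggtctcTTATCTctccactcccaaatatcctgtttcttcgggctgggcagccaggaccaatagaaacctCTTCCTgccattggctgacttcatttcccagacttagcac
*Gata2*, chr6:88193641-88193890, plus strand: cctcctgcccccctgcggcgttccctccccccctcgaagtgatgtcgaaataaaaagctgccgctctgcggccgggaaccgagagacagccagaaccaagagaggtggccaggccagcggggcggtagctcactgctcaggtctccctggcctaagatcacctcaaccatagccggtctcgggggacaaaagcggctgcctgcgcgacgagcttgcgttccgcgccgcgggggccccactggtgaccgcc
The *Tal1* window held 1 GATA match, and the *Gfi1b* window held 1 GATA and 2 E-box matches. The *Erg* window held matches of all 3 kinds, with 1 GATA, 2 E-box and 1 ETS match. These were the windows of *Tal1* and *Erg* with matches. The second *Tal1* window (chr4:115057561-115057810) and the other *Erg* windows (chr16:95530366-95530615 and chr16:95586594-95586843, the latter just before the outermost start of the gene) held none, as did both windows of *Gata2*. The share of G or C was 48.8% and 62.8% in the *Tal1* windows, 67.2% and 74.0% in those of *Gata2*, 36.0% to 48.8% in those of *Erg* and 44.4% in that of *Gfi1b*, beside a median of 52.4% over all promoters.

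Over the whole set, GATA letters occurred in 5 of 14 windows (4 of 8 members), against 26.5% of 32851 mouse promoters of the same length. E-box letters were in 6 windows (6 members), against 66.2% of promoters, and ETS letters in 4 windows (4 members), against 39.2%. RUNX letters (searched as TGTGGT and as TGCGGT, found in 18.6% of promoters) and PAR letters (searched as TTATGTAA and as TTACGTAA, found in 0.931%) were in none of the 14. A match is a description of the letters in a window and was not tested as a site, and these factors also act at distant enhancers that the windows do not cover. The gene bodies lie on GRCm38 at chr4:115056426-115071755 for *Tal1*, chr2:28609450-28621982 for *Gfi1b*, chr16:95359169-95586593 for *Erg* and chr6:88193891-88207032 for *Gata2*.

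Read counts were between 764119 and 13318989 per library, with group medians of 2685764 in Young, 6007460 in Aged and 3162434 in Aged+NR, and a member had between 49 and 13443 counts in a library. Levels are given in CPM, the share of a library's counts scaled to a common library size. All 9 HSC marker genes checked were expressed in every library, and their summed level was 1161 to 1347 CPM in Young, 1493 to 2003 CPM in Aged and 1363 to 1676 CPM in Aged+NR. The 4 Y-linked genes checked summed to 104 and 108 CPM in young replicates 1 and 5 and to at most 3.16 CPM in the other 13 libraries, which goes against the female label of those young libraries. Granulocyte markers (7 genes) summed to 5203 CPM in young replicate 3, while the other young libraries had 23.7 to 616 CPM. The libraries hold bulk RNA, so that fewer cells of a type and less RNA per cell cannot be told apart.

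First it was asked how the factors differed between HSC of aged and young animals. *Tal1* and *Erg* fell with age, and the other 8 members did not pass the test. This was 2 of 10 members at an adjusted p under 0.05 in edgeR's quasi-likelihood test over all 16154 genes, beside 19.3% of all genes, and both were lower in Aged, beside 9.63% of all genes. Of the 10 members, 7 had a lower mean level in Aged, and the median log2 fold change was -0.17 for the members and -0.03 for all genes. No member had groups without overlap, beside 12.4% of all genes.

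*Tal1*, which encodes the basic helix-loop-helix protein of the stem cell complex, was measured at 144, 85.6, 137, 169 and 142 CPM in the young libraries. In the aged libraries it was at 106, 63.6, 87.1, 72.4 and 89.0 CPM. Young replicate 2 was the lowest young library and overlapped the upper aged libraries, while the other 4 young libraries were above every aged library. The mean fell from 135 ± 30.5 CPM (SD, n = 5) to 83.6 ± 16.4 CPM (SD, n = 5), or by 0.67 ± 0.15 (SE) on the log2 scale (edgeR adjusted p = 0.0043). The call held under every alternative tried, with log2 fold changes between -0.80 and -0.58. Without young replicates 1 and 5, which carried Y-linked counts, it was -0.62 (edgeR adjusted p = 0.034), and without young replicate 3, which had the high granulocyte markers, -0.67 (edgeR adjusted p = 0.0083).

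*Erg*, an ETS factor needed for stem cell self-renewal, was at 129.8, 156, 139.7, 206 and 169.6 CPM in Young. In Aged it was at 111, 85.6, 111, 134 and 135 CPM. Aged replicates 4 and 5 overlapped the lowest young library, and the other 3 aged libraries lay below all young libraries. The mean fell from 160.1 ± 29.8 CPM to 115 ± 20.3 CPM, or by 0.46 ± 0.14 (SE) on the log2 scale (edgeR adjusted p = 0.029). The *Erg* call was lost without aged replicate 1, 2 or 3 or young replicate 4 or 5, with adjusted p values between 0.054 and 0.099. Without young replicates 1 and 5 together the log2 fold change was -0.52 (edgeR adjusted p = 0.046), and without young replicate 3 it was -0.50 (edgeR adjusted p = 0.027).

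**Figure D1:**
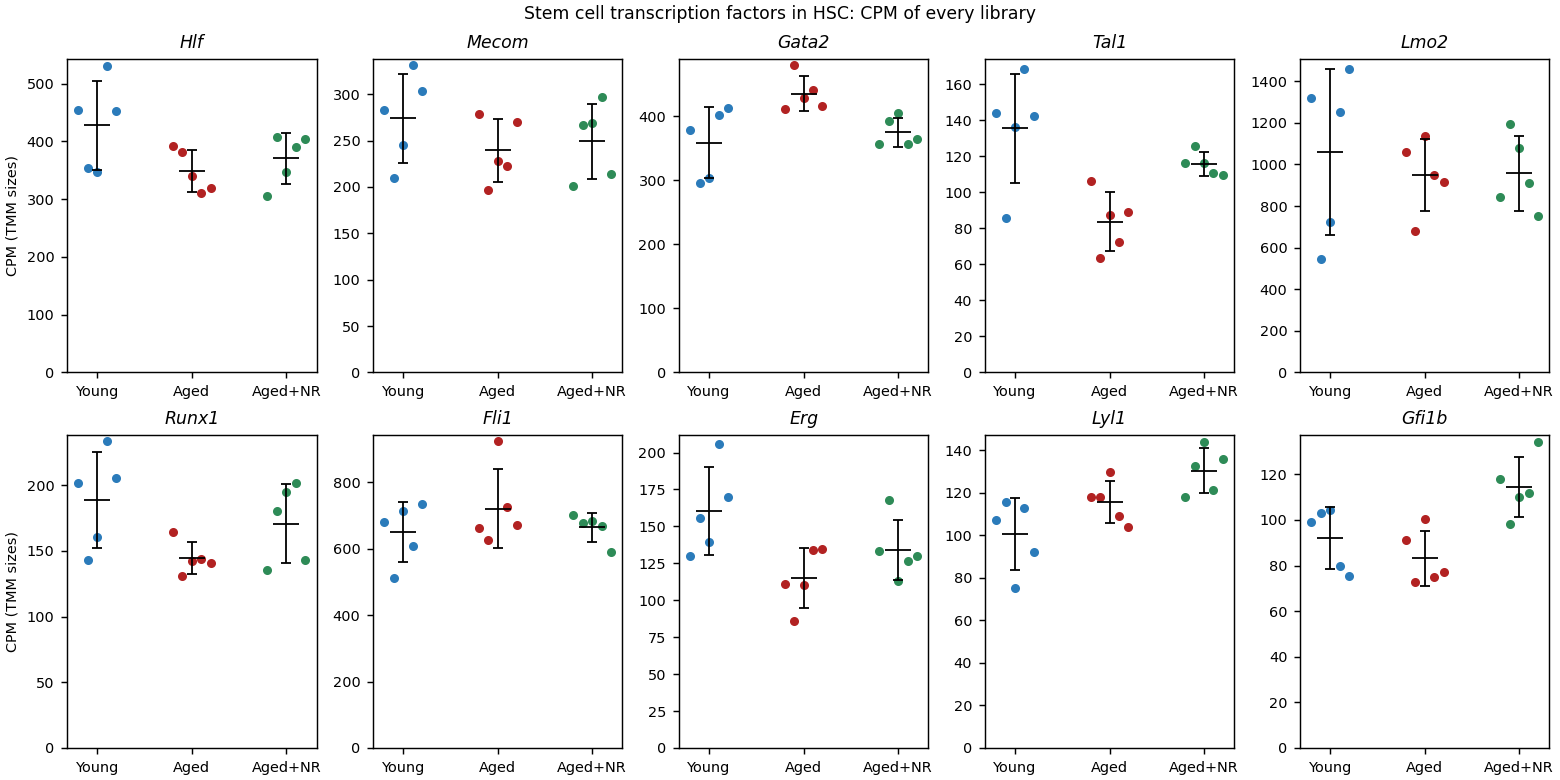
CPM of the 10 transcription factors in every library of Young, Aged and Aged+NR HSC, with TMM library sizes and y axes starting at 0. Points are libraries (n = 5 a group), and bars show the mean ± SD. *Tal1* in Aged (63.6 to 106 CPM) lies below Aged+NR (109 to 126 CPM) and below 4 of 5 young libraries, and *Gata2* in Aged (411 to 480.0 CPM) lies above Aged+NR (356 to 405 CPM).

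The other ETS factor of the set, *Fli1*, did not share the change of *Erg*. It was at 512 to 734 CPM in Young (median 681) and at 625 to 923 CPM in Aged (median 670.0), with a log2 fold change of 0.15 ± 0.12 (edgeR adjusted p = 0.40). *Lyl1*, the relative of *Tal1*, had 75.0 to 116 CPM in Young and 104 to 129.8 CPM in Aged. Its log2 fold change was 0.20 ± 0.12 (edgeR adjusted p = 0.24), opposite in sign to that of *Tal1*. The difference between the changes of these genes was not tested.

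*Gata2*, the zinc finger partner in the complex, was at 379, 295, 304, 403 and 412 CPM in Young and at 411, 480.0, 428, 442 and 416 CPM in Aged. Of the aged libraries, 4 were above every young library, and aged replicate 1 lay just below the highest young one. The log2 fold change was 0.28 ± 0.11, which did not pass the test (edgeR adjusted p = 0.071). *Gata2* was called in 1 of 26 alternatives, limma-voom. *Lmo2*, the bridging protein of the complex, showed the widest spread of the set in Young, at 1319, 544, 723, 1254 and 1459.6 CPM. The young libraries enclosed all aged libraries (681 to 1136 CPM), and the log2 fold change of -0.16 ± 0.21 was smaller than its error (edgeR adjusted p = 0.66).

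*Runx1* and *Hlf* were on the lower side in Aged without passing the test. *Runx1* was at 143 to 233 CPM in Young and at 131 to 165 CPM in Aged, with a log2 fold change of -0.38 ± 0.14 (edgeR adjusted p = 0.058), and it was called in 7 of 26 alternatives. *Hlf* was at 347 to 531 CPM in Young and at 310.1 to 391 CPM in Aged, with a log2 fold change of -0.30 ± 0.13 (edgeR adjusted p = 0.099). *Hlf* was called in 3 of 26 alternatives. For both genes 3 aged libraries lay below every young library. *Mecom* had a log2 fold change of -0.19 ± 0.14 (edgeR adjusted p = 0.36), and *Gfi1b* one of -0.13 ± 0.13 (edgeR adjusted p = 0.51).

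**Figure D2:**
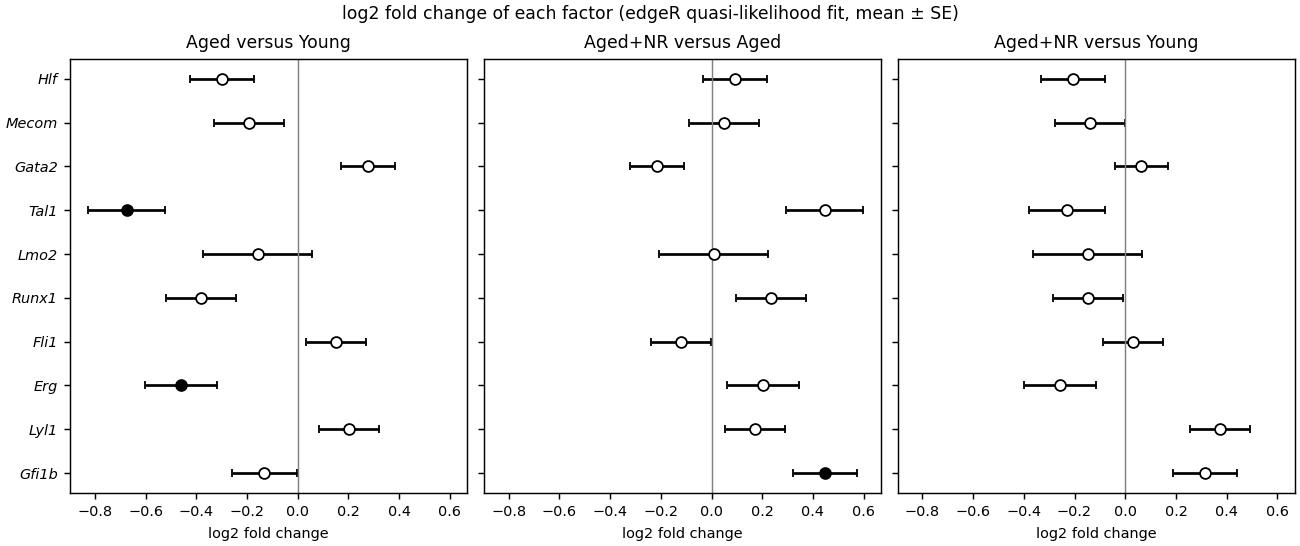
The log2 fold change of each factor in the 3 comparisons, with the standard error as a bar. Filled points passed an adjusted p of 0.05 over all genes, namely *Tal1* (-0.67) and *Erg* (-0.46) in Aged versus Young and *Gfi1b* (0.45) in Aged+NR versus Aged, and open points did not pass.

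Next it was asked how the factors differed between NR-treated and untreated aged animals. *Gfi1b* rose in HSC from NR-treated aged animals, and no other member passed the test. This was 1 of 10 members, beside 8.07% of all genes called and 3.88% called higher. The mean level was higher after NR in 8 members and lower in *Gata2* and *Fli1*, and the median log2 fold change was 0.13 for the members and 0.02 for all genes. With library totals in place of TMM sizes the median of all genes was 0.16, 78.4% of calls were higher against 48.1% with TMM, and *Fli1* was at 0.019. Relative to the median of all genes *Fli1* was at -0.14 under both scalings. The Aged libraries are the same ones that were set against Young above, so that the 2 comparisons are not independent.

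*Gfi1b*, which encodes the repressor acting in erythroid and megakaryocytic cells, was at 91.2, 72.7, 100.4, 74.8 and 77.1 CPM in Aged. In Aged+NR it was at 118, 98.1, 110.1, 112 and 134 CPM. Aged replicate 3 was above the lowest NR library, and the other 4 NR libraries were above every aged library. The mean rose 1.36-fold, from 83.2 ± 12.0 CPM to 114 ± 13.2 CPM, a log2 fold change of 0.45 ± 0.13 (edgeR adjusted p = 0.035). The *Gfi1b* call was lost without aged replicate 2, 4 or 5 or Aged+NR replicate 3, 4 or 5, with adjusted p values between 0.064 and 0.092.

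*Tal1* and *Gata2* did not pass the test, but their aged and NR libraries did not overlap. Such a gap was found in 2 of 10 members, beside 8.60% of all genes. *Tal1* was at 116, 126, 116, 111 and 109 CPM in Aged+NR, above all aged libraries, with a log2 fold change of 0.45 ± 0.15 (edgeR adjusted p = 0.072). It was called in 6 of 26 alternatives, among them DESeq2. Its spread was also narrow in this group, with a coefficient of variation of 5.58%, against 19.6% in Aged and 22.5% in Young. *Gata2* was at 356, 392, 405, 356 and 364 CPM in Aged+NR, below all aged libraries, with a log2 fold change of -0.21 ± 0.11 (edgeR adjusted p = 0.21).

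The remaining members overlapped between the 2 aged groups. *Erg* was at 133, 168, 113, 126 and 129.9 CPM in Aged+NR, with 1 library above the aged range and a log2 fold change of 0.20 ± 0.14 (edgeR adjusted p = 0.39). *Runx1* spread from 135 to 201 CPM, with a log2 fold change of 0.23 ± 0.14 (edgeR adjusted p = 0.30). *Lyl1* had 118 to 144 CPM in Aged+NR and a log2 fold change of 0.17 ± 0.12 (edgeR adjusted p = 0.37). *Hlf*, *Mecom*, *Lmo2* and *Fli1* had log2 fold changes of 0.09, 0.05, 0.01 and -0.12, each below or near its standard error of 0.12 to 0.21.

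Markers of several other cell types moved with the groups. Of all genes, 9.68% were called higher and 9.63% lower in Aged versus Young. In Aged+NR versus Aged 3.88% were called higher and 4.18% lower. Erythroid markers (8 genes) summed to 159 to 2666 CPM in Young, 3234 to 6523 CPM in Aged and 82.9 to 581 CPM in Aged+NR, and 7 of 8 fell in Aged+NR versus Aged. With age 3 of the 8 erythroid markers rose and none fell. Granulocyte markers summed to 1031 to 1660 CPM in Aged and 15.7 to 166 CPM in Aged+NR, and 7 of 7 fell. Megakaryocyte markers (6 genes) summed to 596 to 727 CPM in Young, 749 to 1133 CPM in Aged and 560 to 1494 CPM in Aged+NR, with 1 of 6 higher in Aged+NR versus Aged. Of the 9 HSC markers 4 rose with age and none fell. *Slamf1*, the gene of the sort marker CD150, rose with age (log2 fold change 0.84, edgeR adjusted p = 0.00037). It fell in Aged+NR versus Aged (-0.51, edgeR adjusted p = 0.029). *Cd48*, the surface marker that the sort selects against, fell from a mean of 24.2 CPM in Aged to 3.50 CPM in Aged+NR (log2 fold change -2.83, edgeR adjusted p = 0.0078). Its counts were as low as 4 in a library. *Flt3*, the other progenitor gene checked, was at 3.24 CPM in Aged and 5.46 CPM in Aged+NR (0.62, edgeR adjusted p = 0.22). With age *Flt3* fell (-2.03, edgeR adjusted p = 0.00011), at counts as low as 1. In Aged+NR versus Aged 2 of 4 measured B cell markers and 1 of 4 macrophage markers fell. None of 2 T cell or 3 endothelium markers was called there. *Gfi1b* and *Tal1*, which erythroid cells also express, had higher means in Aged+NR than in Aged, *Tal1* without passing the test. The part of these cells in the levels of the factors was not tested.

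Finally, HSC from NR-treated aged animals were compared with young HSC. None of the 10 members was called, beside 4.47% of all genes (edgeR's quasi-likelihood test), while 2 had an unadjusted p under 0.05, beside 18.0% of all genes, and DESeq2 called 1, *Lyl1*. *Lyl1* was at 107, 116, 75.0, 113 and 92.0 CPM in Young and at 118, 133, 144, 121 and 136 CPM in Aged+NR. Every NR library was above every young library, a gap found in 1 of 10 members beside 4.74% of all genes. The log2 fold change was 0.37 ± 0.12 (edgeR adjusted p = 0.077). *Gfi1b* had 75.2 to 104 CPM in Young, and 4 of 5 NR libraries lay above that range, with a log2 fold change of 0.32 ± 0.13 (edgeR adjusted p = 0.18).

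For *Tal1* the order of the group means was Young (135 CPM), Aged+NR (116 CPM) and Aged (83.6 CPM). Young and Aged+NR did not differ beyond their spread, with a log2 fold change of -0.23 ± 0.15 (edgeR adjusted p = 0.46). *Erg*, *Runx1*, *Hlf*, *Mecom* and *Lmo2* had the same order of means, and for none of them did Aged+NR against Young or against Aged pass the test. For *Erg* the log2 fold change of Aged+NR versus Young was -0.26 ± 0.14 (edgeR adjusted p = 0.36), and for *Runx1* it was -0.15 ± 0.14 (edgeR adjusted p = 0.63). *Gata2* was highest in Aged (435 ± 27.6 CPM), while Aged+NR (375 ± 22.4 CPM) and Young (359 ± 55.5 CPM) were separated by 0.06 ± 0.11 on the log2 scale. *Fli1* likewise had its highest mean in Aged (721 ± 118 CPM), within the spread of Young (650.0 ± 90.6 CPM) and Aged+NR (664 ± 42.8 CPM). *Gfi1b* and *Lyl1* had their highest means in Aged+NR.

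Ratios between members in the same library do not depend on how libraries were scaled. They were chosen after the values had been seen and are described without a test. *Tal1* gave 38.0, 29.0, 45.0, 41.9 and 34.5 counts for every 100 counts of *Gata2* in Young. In Aged it gave 25.8, 13.2, 20.4, 16.4 and 21.4, so that all aged libraries lay below all young ones. In Aged+NR it gave 32.6, 32.1, 28.7, 31.0 and 30.1, above all aged libraries and near the lower end of the young range. *Gfi1b* gave 18.2 to 34.9 counts for every 100 of *Gata2* in Young, 15.1 to 23.5 in Aged and 25.0 to 36.9 in Aged+NR, with no overlap between the aged groups. *Tal1* gave 16.7 to 27.7 counts for every 100 of *Fli1* in Young, 9.44 to 16.1 in Aged and 16.6 to 18.6 in Aged+NR. There too all aged libraries lay below all young and all NR libraries. Ratios of *Tal1* to *Lyl1* and of *Erg* to *Fli1* overlapped more. *Tal1* gave 74.0 to 182 counts for every 100 of *Lyl1* in Young, 53.8 to 90.1 in Aged and 80.6 to 98.3 in Aged+NR, and *Erg* gave 19.1 to 33.9 for every 100 of *Fli1* in Young, 12.0 to 20.1 in Aged and 16.5 to 24.8 in Aged+NR.

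**Figure D3:**
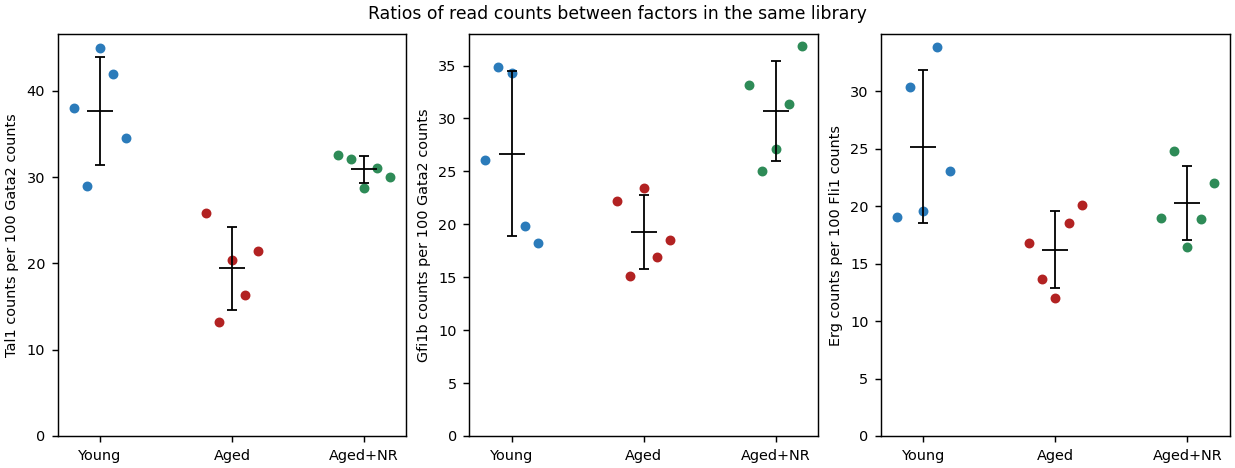
Counts of one factor for every 100 counts of another in the same library, for *Tal1* to *Gata2*, *Gfi1b* to *Gata2* and *Erg* to *Fli1*. Points are libraries, and bars show the mean ± SD (n = 5). The ratio of *Tal1* to *Gata2* is 29.0 to 45.0 in Young, 13.2 to 25.8 in Aged and 28.7 to 32.6 in Aged+NR.

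Counts of 5 members could include reads of an overlapping gene, since the strand setting of the counting is not given in the sources used here. *Lyl1* overlaps *Nfix* on the opposite strand, *Lmo2* overlaps *4931422A03Rik*, and *Runx1*, *Mecom* and *Fli1* overlap predicted or antisense transcripts, so their values are uncertain in that respect. *Tal1*, *Erg*, *Gfi1b*, *Gata2* and *Hlf* overlap no other annotated gene. Overlap was judged by whole gene bodies, and overlap of the exons that were counted was not checked.

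How the members varied among themselves between mice of the same group was then described. For each of the 45 pairs of members, Pearson's r was computed over 15 libraries from deviations of log2 CPM from the group mean, as a description. Points of a pair share the library, its depth and its scaling. The median r was 0.26, 34 pairs were positive and 11 negative, and 6 were above 0.7. Without young replicate 2 only 2 pairs were above 0.7, and without young replicate 3 the split was 29 positive and 16 negative. Pairs of other genes were not computed, so nothing particular to the set is read from these values. *Mecom* and *Runx1* varied most alike, with r = 0.93, and r = 0.89 over the 10 libraries of aged animals alone. *Lmo2* followed *Runx1* (0.79), *Tal1* (0.77) and *Mecom* (0.75).

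Over 15 libraries *Gfi1b* stood opposite to most of the set, with negative r with 7 of the other 9 members. Its lowest value was with *Gata2* (-0.69 over 15 libraries and -0.56 over the 10 libraries of aged animals). Over aged animals its r was positive with *Tal1* (0.37), *Fli1* (0.34), *Lyl1* (0.39), *Hlf* (0.06) and *Lmo2* (0.05). It was negative there with *Mecom* (-0.12), *Runx1* (-0.20) and *Erg* (-0.19), as with *Gata2*. Young replicate 2 was below the group mean for 8 of 10 members and young replicate 3 for 7, whereas young replicate 1 was above it for 9 and young replicates 4 and 5 for 8 each. Young replicates 1 and 5 are those with Y-linked counts and young replicate 3 the one with the high granulocyte markers, and the part of these features was not tested. Over aged animals alone the median r was 0.16, and 1 pair was above 0.7.

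**Figure D4:**
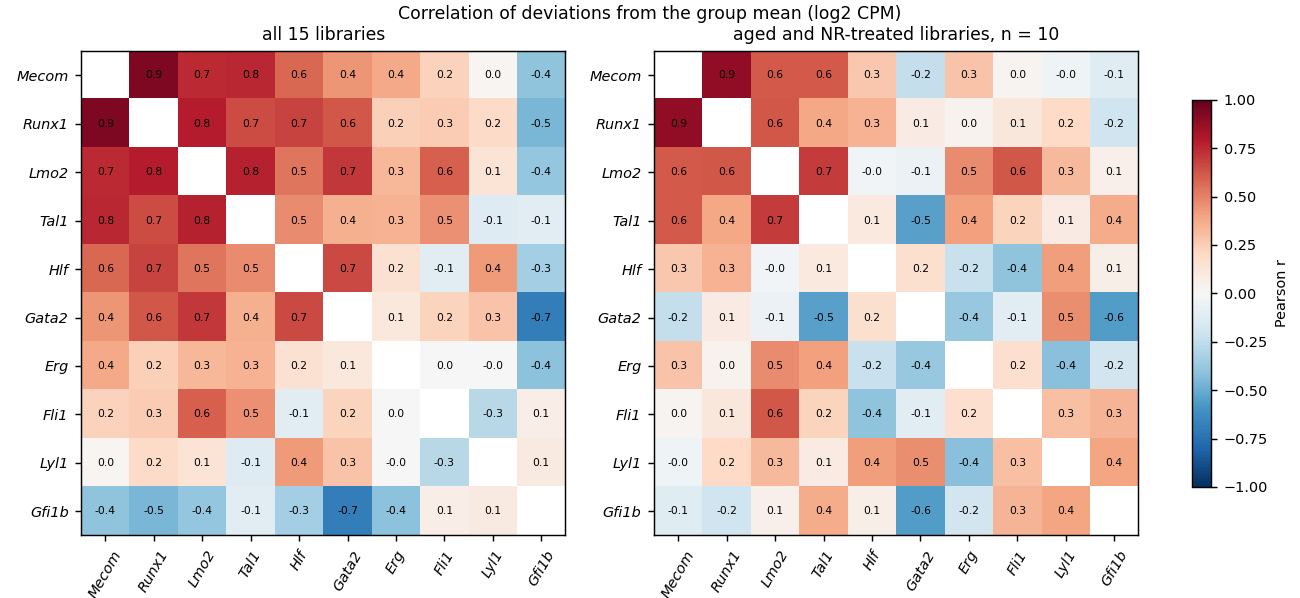
Pearson's r between deviations of log2 CPM from the group mean for each pair of factors, over all 15 libraries (left) and over the 10 aged and NR-treated libraries (right), on a colour scale from -1 to 1. *Mecom* and *Runx1* have r of 0.93 and 0.89, and *Gata2* and *Gfi1b* -0.69 and -0.56.

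For the 3 members that were called, the genes with the most similar log2 CPM over the 15 libraries were listed among the 10097 genes that averaged 5 CPM or more. *Tal1* was followed by *Pds5a* (r = 0.94), *Vps13d* (0.93) and *Miga1* (0.93), where 99% of genes had an r with *Tal1* under 0.83. *Pds5a*, which encodes a cohesin cofactor, was at 112 ± 26.5 CPM in Young, 56.3 ± 11.0 CPM in Aged and 99.7 ± 12.8 CPM in Aged+NR. *Erg* was followed by *Atp8b2* (0.91), *Ppp2ca* (0.91) and *Mtss1* (0.90), with a 99th percentile of 0.78. *Gfi1b* was followed by *Men1* (0.85), *Tle6* (0.85) and *Slc35d2* (0.84), with a 99th percentile of 0.63. *Men1*, the gene of the chromatin protein menin, was at 52.7 ± 6.51 CPM in Young, 47.4 ± 5.30 CPM in Aged and 58.2 ± 5.50 CPM in Aged+NR. These values describe likeness of level over 15 libraries that share their groups.

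Around the factors, 52 partners, relatives, corepressors and target genes were listed, and all were measured. In Aged versus Young 6 were higher and 13 lower, or 36.5% of the 52, beside 19.3% of all genes (9.68% higher and 9.63% lower). In Aged+NR versus Aged 5 were higher and 5 lower, or 19.2%, beside 8.07% (3.88% higher and 4.18% lower). In Aged+NR versus Young 4 were higher and 4 lower, or 15.4%, beside 4.47% (2.56% higher and 1.91% lower). These shares are read only as counts, since the list was compiled with earlier results of these data known. The calls in each list below stand beside the same shares of all genes and are read in the same way.

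Of 8 partners of the TAL1, LMO2 and LDB1 complex, 3 fell with age and none rose, with a median log2 fold change of -0.27 beside -0.03 for all genes. *Ldb1*, the adaptor that joins the complex, fell from 102 ± 16.1 CPM to 59.4 ± 17.8 CPM (log2 fold change -0.73, edgeR adjusted p = 0.0054), without overlap. The E protein genes *Tcf12* and *Tcf3*, whose products pair with TAL1 and LYL1, fell by 0.76 and 0.60 on the log2 scale (edgeR adjusted p = 0.0062 and 0.0082). After NR, *Tcf12* was 0.66 higher than in Aged (edgeR adjusted p = 0.031), a call lost without aged replicate 3, 4 or 5 or Aged+NR replicate 2, 3 or 4. *Lmo4*, a relative of *Lmo2* that also binds LDB1, was 0.62 lower in Aged+NR than in Young (edgeR adjusted p = 0.023), a call lost without young replicate 3 or 4 or Aged+NR replicate 2 or 3.

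The ID proteins bind E proteins and keep them off DNA. *Id2* rose with age from 22.0 ± 13.4 CPM to 62.7 ± 9.94 CPM (log2 fold change 1.53, edgeR adjusted p = 0.00085), with all aged libraries above all young ones. *Id1* was 4.98 to 8.28 CPM in Aged and 1.19 to 3.29 CPM in Aged+NR (log2 fold change -1.84, edgeR adjusted p = 0.0091), at counts as low as 4 in a library. *Id1* was also lower in Aged+NR than in Young by 1.64 on the log2 scale (edgeR adjusted p = 0.019), a call lost without Aged+NR replicate 2.

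Relatives of *Gata2* went in different directions with age. *Gata3*, expressed in stem cells and in T cells, rose from 71.1 ± 7.84 CPM in Young to 145 ± 18.2 CPM in Aged (log2 fold change 1.02, edgeR adjusted p = 6.0e-06). In Aged+NR it was at 101 ± 11.6 CPM, between the other groups and without overlap with either (edgeR adjusted p = 0.013 against Aged and 0.014 against Young); the call against Aged was lost without aged replicate 3. *Gata1*, the erythroid and megakaryocytic member of the family, fell with age from 39.2 ± 2.92 CPM to 25.7 ± 8.58 CPM (log2 fold change -0.68, edgeR adjusted p = 0.040), a call lost when any of young replicates 1, 3, 4 and 5 or aged replicates 1, 3 and 5 was left out.

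In the list of the RUNX partner and relatives 2 of 3 genes fell with age. *Runx3* fell from 80.1 ± 20.6 CPM to 33.5 ± 5.50 CPM (log2 fold change -1.25, edgeR adjusted p = 0.00026), and *Runx2* from 112 ± 12.4 CPM to 65.9 ± 8.93 CPM (-0.75, edgeR adjusted p = 0.0012), both without overlap. After NR *Runx3* was higher than in Aged by 0.77 on the log2 scale (edgeR adjusted p = 0.026), a call lost without aged replicate 3 or 5 or Aged+NR replicate 3 or 4. *Runx2* was lower in Aged+NR than in Young (-0.84, edgeR adjusted p = 0.0010).

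Among 7 other ETS genes 1 rose and 1 fell with age. *Ets1* rose from 48.2 ± 25.5 CPM to 86.5 ± 23.2 CPM (log2 fold change 0.85, edgeR adjusted p = 0.023) and was lower in Aged+NR, at 42.3 ± 7.10 CPM (log2 fold change -1.03 against Aged, edgeR adjusted p = 0.020). The first *Ets1* call was lost without young replicate 1 or 5 or aged replicate 3, and the second without aged replicate 3 or Aged+NR replicate 3 or 4. *Etv6*, an ETS repressor needed by adult stem cells, fell from 206 ± 18.2 CPM to 147 ± 10.2 CPM (-0.48, edgeR adjusted p = 0.0022) and was at 188 ± 18.8 CPM in Aged+NR (0.35 against Aged, edgeR adjusted p = 0.038). The latter *Etv6* call was lost without any one of the 5 aged libraries or without Aged+NR replicate 2, 3 or 4. No ETS relative was called in Aged+NR versus Young; the most abundant, *Elf1*, was at 400.4 ± 24.6 CPM in Young and 314 ± 23.4 CPM in Aged+NR (log2 fold change -0.35, edgeR adjusted p = 0.10).

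Relatives and corepressors of HLF, MECOM and GFI1B had 1 call each with age, all lower. *Tef*, a PAR relative of *Hlf*, fell by 0.84 on the log2 scale (edgeR adjusted p = 0.0043), at counts as low as 4 in a library. *Ctbp1*, a corepressor that MECOM recruits, fell by 0.44 (edgeR adjusted p = 0.027) and was 0.47 higher in Aged+NR than in Aged (edgeR adjusted p = 0.038). The call with age was lost without young replicate 3, 4 or 5 or aged replicate 2 or 3, and the call after NR without aged replicate 2, 3 or 5 or Aged+NR replicate 1, 2, 3 or 4. *Kdm1a*, the demethylase that GFI1B recruits, fell by 0.61 with age (edgeR adjusted p = 0.014). No other gene of these 3 lists was called; in Aged+NR versus Aged *Hdac1* had a log2 fold change of -0.19 (edgeR adjusted p = 0.35) and *Tef* one of 0.38 (edgeR adjusted p = 0.22). In Aged+NR versus Young *Hdac1* had a log2 fold change of 0.02 (edgeR adjusted p = 0.97), *Tef* one of -0.46 (edgeR adjusted p = 0.19) and *Prdm16*, the closest relative of *Mecom*, one of 0.22 (edgeR adjusted p = 0.77).

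**Figure D5:**
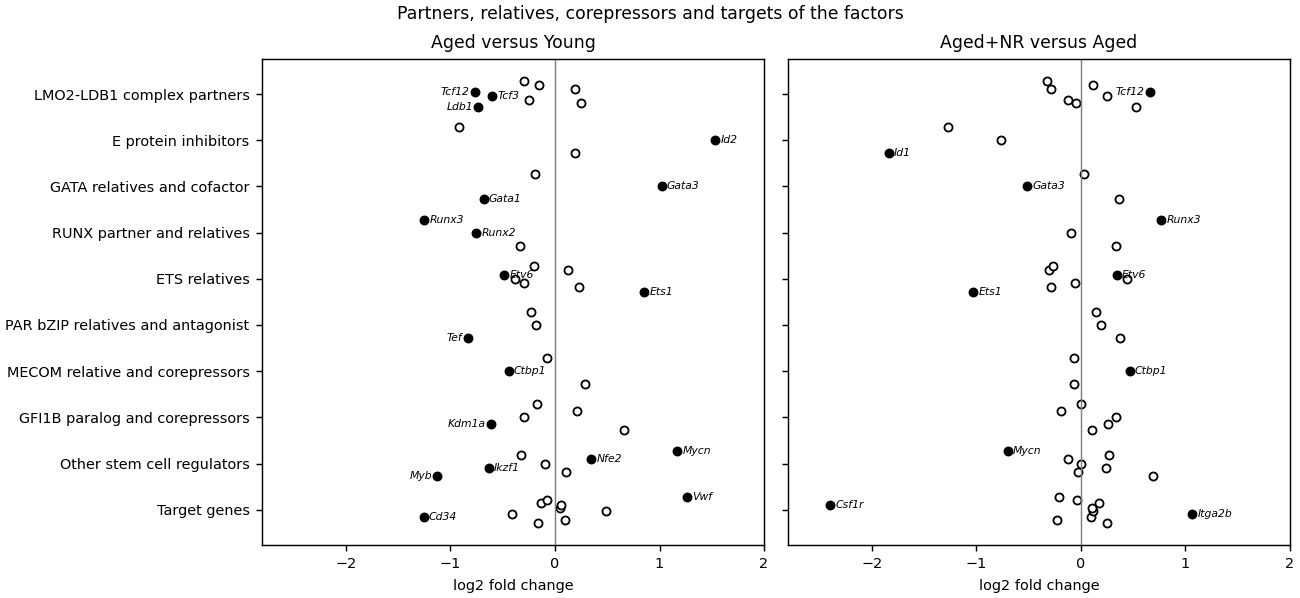
The log2 fold change of the 52 partners, relatives, corepressors, other regulators and target genes in Aged versus Young (left) and Aged+NR versus Aged (right). Each point is a gene, and filled, named points passed an adjusted p of 0.05 over all genes, 19 on the left and 10 on the right.

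Of 7 other stem cell regulators, 2 rose and 2 fell with age. *Mycn*, a MYC family gene, rose from 217 ± 27.1 CPM to 488 ± 43.6 CPM (log2 fold change 1.17, edgeR adjusted p = 1.8e-06) and was at 300.5 ± 50.8 CPM in Aged+NR, below all aged libraries (-0.70 against Aged, edgeR adjusted p = 0.0037). *Mycn* was still higher in Aged+NR than in Young (0.47, edgeR adjusted p = 0.032), a call lost without young replicate 2, 3 or 4 or Aged+NR replicate 2, 4 or 5. *Nfe2*, a megakaryocytic and erythroid factor, rose by a log2 fold change of 0.35 (edgeR adjusted p = 0.010). *Myb* fell by 1.13 (edgeR adjusted p = 0.0030) and *Ikzf1*, the lymphoid factor Ikaros, by 0.63 (edgeR adjusted p = 0.0025).

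Of 10 target genes, *Vwf* rose and *Cd34* fell with age. *Cd34*, a surface protein low in the most primitive stem cells of the mouse, fell from 175 ± 29.7 CPM to 73.6 ± 4.44 CPM (log2 fold change -1.26, edgeR adjusted p = 3.1e-07) and was at 78.5 ± 7.53 CPM in Aged+NR (-1.16 against Young, edgeR adjusted p = 1.7e-06). *Vwf*, which marks platelet-biased stem cells, rose from 72.7 ± 9.76 CPM to 174 ± 20.1 CPM (1.27, edgeR adjusted p = 2.8e-05) and was at 151 ± 39.8 CPM in Aged+NR (1.06 against Young, edgeR adjusted p = 0.00045). *Itga2b*, the megakaryocytic integrin CD41, was at 119 ± 19.7 CPM in Young, 90.0 ± 17.0 CPM in Aged and 188 ± 37.3 CPM in Aged+NR (log2 fold change 1.07 against Aged, edgeR adjusted p = 0.0011, and 0.66 against Young, edgeR adjusted p = 0.017). The *Itga2b* call against Young was lost without Aged+NR replicate 1. *Csf1r*, a macrophage gene, was at 10.5 ± 3.14 CPM in Aged and 1.97 ± 1.01 CPM in Aged+NR (log2 fold change -2.39, edgeR adjusted p = 0.036), at counts as low as 3 in a library and with a call lost without aged replicate 3, 4 or 5 or Aged+NR replicate 1, 2, 3 or 4.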

How the data were processed

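RNA was measured in HSC of 15 mice, grouped by the labels as Young, Aged and Aged+NR (n = 5 each). The authors made 3′ biased libraries with a 10 bp unique molecular identifier (UMI), aligned reads with STAR 2.4.2a to GRCm38, removed duplicated UMIs, counted exonic reads with featureCounts and deposited the raw read counts of each gene. Per their methods a gene was kept if at least 2 samples exceeded 5 reads and 2 CPM; the CPM limit was met by all 16154 deposited genes, the read limit by 16122.

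From the counts, edgeR 4.0.16 (R 4.3.3) was run as 1 fit of all libraries on group, with TMM sizes and the quasi-likelihood test; p-values were adjusted over all genes by Benjamini-Hochberg and called under 0.05. The study used edgeR's likelihood ratio test, which is here an alternative, as are DESeq2 1.42.0, limma-voom 3.58.1, other scalings, filters, depths and sets of libraries. CPM uses TMM sizes, the SE of a log2 fold change is its size divided by the square root of F, and log2 CPM for correlations has a prior count of 2. Total counts limit precision, and 3 counts or fewer were not told from absence (counting error only). The fits were also run on simulated data, where every tool missed part of the changes and had a false share above the set threshold. Counts of libraries within a group differed by more than sampling noise.

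Replicate numbers were not treated as pairs. Each library came from its own mouse, so p-values set group differences against the variation between libraries. That variation holds differences between animals together with those of sorting, preparation and depth. Positions came from GENCODE on GRCm38, promoter windows from RefSeq on GRCm38.p6.

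The members, lists and tests were chosen with earlier results of these data known. All 10 members are named. From each of 10 related lists the genes called are named, at most 4 a list and comparison by p, and where none was called the gene with the highest mean CPM. For each called member the 3 most similar genes are named, with clones and predicted genes left out.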

Additional observations from a re-analysis of the deposited data

How the results depend on the processing

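Of 780 recomputed log2 fold changes of the members (30 results under 26 alternatives each), 735 kept their direction and their side of the threshold, 14 lost and 19 gained the call, and 12 changed sign, none of these called; 24 of 30 results never changed sign. The number of members called was 2 in Aged versus Young, 1 in Aged+NR versus Aged and 0 in Aged+NR versus Young. In Aged versus Young it was 1 at an adjusted p under 0.01, 4 with library totals, 4 with at least 10 counts in every library, and 1 to 4 with 1 library left out. In Aged+NR versus Aged it was 0 at an adjusted p under 0.01 and after thinning to the smallest total, 2 with DESeq2, with only the 2 groups, with library totals and with at least 10 counts in every library, and 0 to 2 with 1 library left out. In Aged+NR versus Young it was 1 with DESeq2 and 0 to 1 with 1 library left out. Leaving out young replicate 2 gave the highest number in each comparison (4, 2 and 1).

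All genes called numbered 3120, 1303 and 722 in the 3 comparisons, 1317, 208 and 310 at an adjusted p under 0.01, 1550, 409 and 405 after thinning, and 1953 to 3533, 422 to 1535 and 452 to 922 with 1 library left out, lowest without aged replicate 3 in the first 2 and without Aged+NR replicate 4 in the last. With at least 10 counts in every library 783 were called in Aged+NR versus Aged, and without young replicates 1 and 5 together 1862 in Aged versus Young. Library totals moved the median of all genes from -0.03 to -0.16 in Aged versus Young and from 0.02 to 0.16 in Aged+NR versus Aged, and the share of calls that were higher from 50.1% to 29.1% and from 48.1% to 78.4%. Against that median, *Tal1* was at -0.64 under both scalings in Aged versus Young, and *Gfi1b* at 0.43 with TMM and 0.42 with library totals in Aged+NR versus Aged.

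*Lmo2* reversed to 0.18 in Aged versus Young and to 0.19 in Aged+NR versus Young without young replicates 1 and 5, and in Aged+NR versus Aged to -0.016 with limma-voom and to between -0.086 and 0.090 with 1 library left out. *Mecom* ranged from -0.018 to 0.13 in Aged+NR versus Aged with 1 library left out. *Fli1* had the value 0.019 in Aged+NR versus Aged with library totals, which moved the median of all genes, and relative to that median was at -0.14 under both scalings. In Aged+NR versus Young *Fli1* reversed to -0.0015 after thinning and between -0.044 and 0.078 with 1 library left out. The causes of the other sign changes were not tested. The median r of member pairs was 0.26, 0.30 without young replicate 3, 0.28 without young replicate 2, 0.16 over aged and NR-treated libraries and 0.45 over young libraries, the last 3 chosen after seeing the data.

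Deviations of libraries with the same replicate number correlated by 0.0021 on average (-0.27 to 0.13 over 15 pairs), so the numbers were not taken as pairs. With the replicate number as a block, 2, 1 and 0 members and 2836, 1048 and 589 genes were called, and no member's call changed. No member's group of 5 held a library far from the others by Dixon's criterion. Depth limits small changes: aged replicate 2 had 764119 counts.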
